A study of Mus musculus with 15 samples.

Results

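The genes described here copy, hold together and mend DNA. They were taken by gene symbol from a table of mRNA levels in mouse ventricular cardiomyocytes: minichromosome maintenance (Mcm), origin recognition (Orc), replication factor C (Rfc), replication protein A (Rpa), DNA polymerase alpha, delta and epsilon, primase, Pcna, ribonucleotide reductase (Rrm), structural maintenance of chromosomes (Smc), Rad, Xrcc, Ercc, Msh, Mlh, Fanconi anemia (Fanc), DNA ligase and Parp symbols. Of 9666 genes in the table, 84 matched. All 15 libraries came from hearts of C57BL/6 mice labelled wild type, with no transgene or treatment named: 7 from adults of 8 to 12 weeks, 4 from postnatal day 1 (P1) and 4 from postnatal day 3 (P3). RNA was total RNA from TRIzol extraction, and values are RPKM, reads scaled by gene length and library depth. The labels do not say that libraries came from separate animals, so p-values measure only the spread between these libraries, which may be technical.

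DNA replication starts where the origin recognition complex loads the ring-shaped Mcm helicase, which unwinds DNA for the polymerases, while Pcna, a sliding clamp placed by the Rfc loader, keeps them on the template. Smc proteins form the arms of cohesin, which holds sister chromatids, of condensin, which compacts chromosomes for division, and of the Smc5-Smc6 complex. Mouse cardiomyocytes still divide around birth and mostly leave the cell cycle within the next days, whereas many repair genes are also used by cells that do not divide.

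Some libraries stood apart, which bears on each P3 result below. The summed RPKM of 16 cardiomyocyte markers (such as Myh6, Tnnt2 and Ttn) was 20400 to 39100 in adult and 7820 to 16700 in P1 libraries. It was 7420 in P3 replicate 1 but 1770, 999 and 860 in P3 replicates 2, 3 and 4, so these 3 libraries go against their label. Counts of P3 calls against adult, and the P3 changes of the members each section turns on, are also given with P3 replicate 1 as the only P3 library. Endothelial markers (11 of 18 in the table) summed to 3.4 to 225 in adult, 220 to 496 in P1 and 741 to 1730 in P3 libraries. Fibroblast markers (6 of 14) summed to 4.8 to 81.2 in adult, up to 1410 in P1, where replicate 1 held the 1410 and the other 3 libraries 165 to 200, and 381 to 812 in P3 libraries. Immune and erythroid markers had 0 genes in the table. The part that other cell types play in the results was not tested, and in bulk RNA fewer cells of a type and less RNA per cell cannot be told apart.

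Every value in the table is above 0.1 RPKM, so a gene at or under that level in any library is not analysed here. The median tested gene was higher by 1.36 on the log2 scale in P1 and by 1.48 in P3 than in adult libraries, and by 0.09 in P3 than in P1. Results are therefore given as deposited and, for the counts and many members, also after subtracting each library's median, written as centred. Of the 84 members 81 were tested, which reached 1 RPKM in 4 or more of the 15 libraries, and 14 of these had no adult library at that level. In all, 28 had fewer than 4 adult libraries at that level and passed only with their neonatal libraries, among them Mcm2, Mcm3, Mcm4, Mcm6, Prim2, Rfc3, Smc2, Rad9a, Msh6, Parp8 and Parp14. Counts of calls over the tested members therefore describe them and are no support for a difference. Mcm8, a helicase paralog used in recombination, was not tested, at 0.338 to 0.504 RPKM in adult, 0.601 to 1.18 in P1 and 0.622 to 0.871 in P3 libraries. The checkpoint clamp genes Rad1 and Rad9b were not tested either, and their highest values in any library were 1.4 and 0.839 RPKM.

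The promoters of Mcm6 and Rrm1, which changed among the most, of Pola1, which held the most runs of the motif among those shown, and of Mcm3 are printed because E2F factors, which drive S-phase genes, are known to bind near the start of many of them. Windows are the 250 bases before the annotated start, read 5′ to 3′ on the gene's strand from RefSeq (GRCm38.p6), with no annotated exon base in those printed. Capitals mark TTCCCGC or TTGGCGC, or the reverse complement of either, letters taken as a simple E2F-type motif. The lines give Mcm6 at chr1:128359706-128359955 (minus strand), Rrm1 at chr7:102441445-102441694 (plus strand), Pola1 at chrX:93632156-93632405 (minus strand) and, with no match, Mcm3 at chr1:20820313-20820562 (minus strand).
Mcm6: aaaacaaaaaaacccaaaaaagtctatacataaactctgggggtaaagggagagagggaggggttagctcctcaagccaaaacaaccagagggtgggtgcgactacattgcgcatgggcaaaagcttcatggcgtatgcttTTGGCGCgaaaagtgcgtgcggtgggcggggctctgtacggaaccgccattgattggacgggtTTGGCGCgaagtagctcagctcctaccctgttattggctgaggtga
Rrm1: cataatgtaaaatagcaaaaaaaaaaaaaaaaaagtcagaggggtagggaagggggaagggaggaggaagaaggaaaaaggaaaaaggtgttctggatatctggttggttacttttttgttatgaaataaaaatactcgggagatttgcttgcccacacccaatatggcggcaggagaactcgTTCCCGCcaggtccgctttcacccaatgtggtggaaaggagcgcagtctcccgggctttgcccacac
Pola1: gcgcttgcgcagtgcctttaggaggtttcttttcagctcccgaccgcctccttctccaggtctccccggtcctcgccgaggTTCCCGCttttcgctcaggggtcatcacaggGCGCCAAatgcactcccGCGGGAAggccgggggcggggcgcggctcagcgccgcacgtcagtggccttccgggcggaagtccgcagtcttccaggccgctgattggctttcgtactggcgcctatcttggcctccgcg
Mcm3: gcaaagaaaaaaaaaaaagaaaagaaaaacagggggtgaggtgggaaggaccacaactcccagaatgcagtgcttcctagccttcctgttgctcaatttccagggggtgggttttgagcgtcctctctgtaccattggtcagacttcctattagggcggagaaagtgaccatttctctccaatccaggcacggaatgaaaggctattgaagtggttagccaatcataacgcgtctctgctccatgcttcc
Mcm6 held 2 such runs, Pola1 3 and Rrm1 1. Of the 84 members 66 had a promoter in the table of RefSeq promoters, some with more than 1 start, giving 76 windows. The motif was in 19 of the 76 (25%), against 10.3% of the windows of all genes in the RPKM table and 5.62% of all 32851 windows. Among windows of the Mcm, Orc, clamp, polymerase, Rpa and reductase members it was in 12 of 32 (37.5%), and among those of Parp members in 0 of 10. Within that first set it was in 3 of 6 Mcm windows and in 0 of 4 clamp and loader windows. The Mcm matches came from Mcm6 and from both annotated starts of Mcm7, where 1 window lies wholly in annotated exon. The windows of Mcm2, Mcm3 and the untested Mcm8 held none. Outside that first set the motif was in 0 of 5 Smc and 2 of 4 Xrcc windows. The letters CCAAT, the core of a site bound by NF-Y, were on either strand in 50% of member windows and in 35.3% of those of genes in the table. A match describes letters only, and Mcm3, the member with the largest change, had none.

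The Mcm helicase genes had the largest median change of any role, and no member was called lower as deposited. In P1 against adult, 54 of 81 tested members were called higher and 0 lower, beside 62.7% of all tested genes called higher and 4.32% called lower. Here a gene was called when limma on log2(RPKM + 0.5) gave a Benjamini-Hochberg adjusted p below 0.05 and a log2 change of 1 or more in size, a scale that understates changes of low genes. The median log2 change of the tested members was 1.43, beside 1.36 for all tested genes. In P3 against adult, 62 (76.5%) were called higher and 0 lower, beside 62.7% and 9.16% of all tested genes, with a median of 1.64 beside 1.48. With P3 replicate 1 alone as P3, 57 were called higher and 0 lower, beside 64.1% and 4.67% of all tested genes. That fit assumes that the lone P3 library varies like the other groups. In it Ercc6l2, Msh3, Parp4, Parp9, Parp14 and Xrcc1 were no longer called and Ercc5 was. The replication and condensin changes in it were 4.20 for Mcm6, 3.12 for Mcm2, 3.17 for Rrm1, 3.14 for Pcna, 2.75 for Smc4 and 2.54 for Smc2. Among repair genes it gave 2.35 for Ercc3, 2.08 for Msh6 and 2.52 for Rad23b, and for Rrm2b it gave -0.88 (limma adjusted p = 0.053). Every P1 library lay above every adult one for 64 of 81 members and below for 0 (65.1% and 4.86% of all tested genes), and every P3 library above for 69 and below for 0 (64.3% and 7.99%).

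Centred on the library median, 9 members were called higher and 4 lower in P1 (13.5% and 21.8% of all tested genes), and 15 higher and 8 lower in P3 (18.9% and 27.2%). With P3 replicate 1 alone, centred, 11 were called higher and 8 lower (14.7% and 23.7% of all tested genes). After centring, P1 lay wholly above adult for 12 members and below for 17 (20.3% and 28.2% of all tested genes), and P3 for 20 and 18 (25% and 31.8%). The 9 in P1 were Mcm2, Mcm3, Mcm4, Mcm6, Mcm7, Orc6, Rfc3, Rrm1 and Smc4. Each of them was called higher under 6 of 6 scalings of the libraries. In P3 they were joined by Pcna, Prim2, Smc1a, Smc2, Rad9a and Rad54l2, 15 in all, under 6 of 6 scalings. Among the 15, Mcm2, Mcm3, Mcm4, Mcm6, Rfc3, Prim2, Smc2, Rad9a and Rad54l2 passed the filter only with their neonatal libraries. Of those 15, with P3 replicate 1 alone and centred, Prim2 (1.09, limma adjusted p = 0.076), Smc1a (0.55), Smc2 (0.93, adjusted p = 0.1) and Rad54l2 (0.68) were not called. By role, the centred median change in P1 and in P3 was 1.78 and 2.25 for the Mcm helicase and 0.40 and 0.83 for the Smc genes. It was -0.02 and 0.06 for the origin recognition complex, 0.08 and -0.33 for the clamp and its loader, -0.79 and -0.22 for the Parp and -0.85 and -1.31 for the Xrcc genes. Across all tested genes 13.3% in P1 and 18.8% in P3 were called higher under 6 of 6 scalings. For lower calls the shares were 4.3% and 9.15%, beside 0 members. These shares nearly equal the 13.5% and 18.9% called higher when centred, and the 4.32% and 9.16% called lower as deposited. Passing 6 of 6 scalings therefore adds little to those calls. The fitted sign differed between scalings for 38 members in P1 and for 34 in P3, so for these the direction depends on the scaling. The adult libraries are shared by both comparisons.

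**Figure D1:**
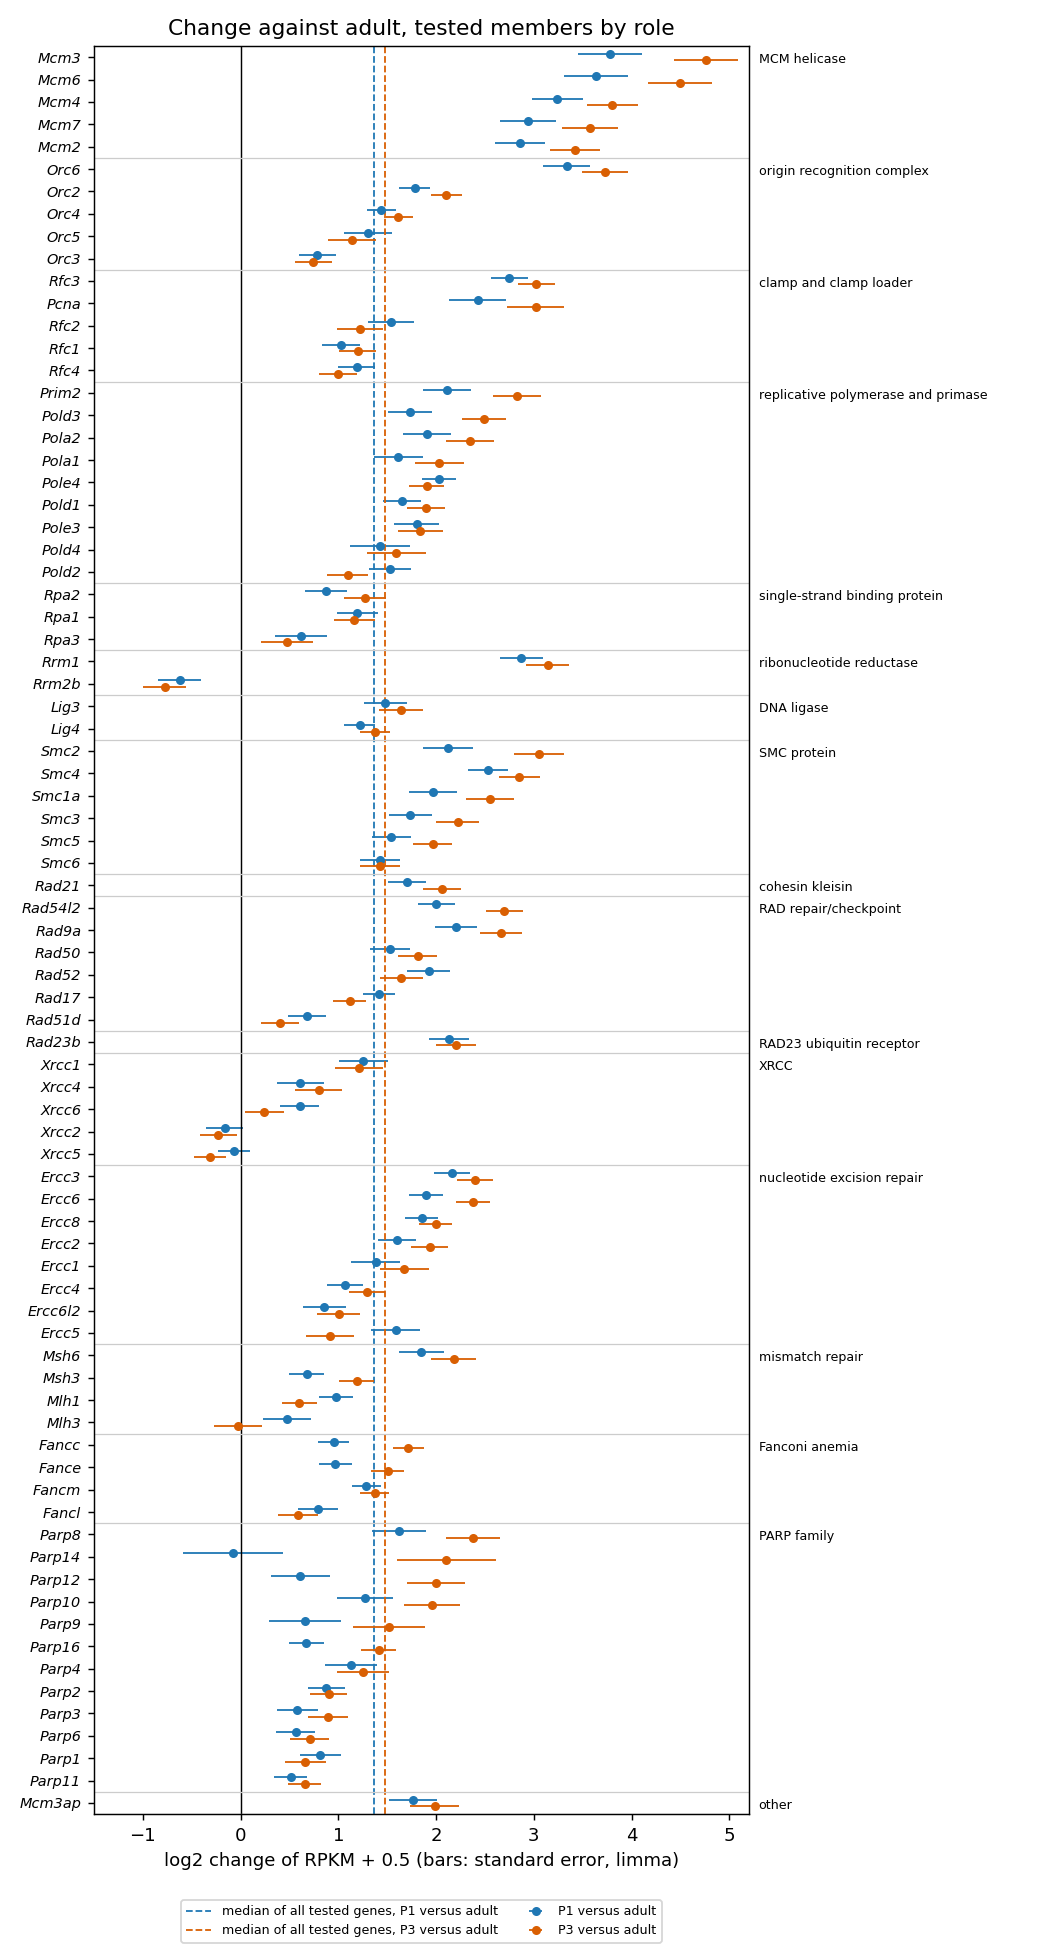
Log2 change of RPKM + 0.5 against adult (x axis) for 79 of the 81 tested members (y axis, grouped by role), with points for P1 and P3, bars for the standard error and dashed lines at the median of all tested genes (1.36 and 1.48). Mcm3 and Mcm6 lie farthest to the right, and Rrm2b, Xrcc2 and Xrcc5 lie left of 0 in both comparisons.

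The tested Mcm helicase genes were all called higher, with median changes of 3.24 in P1 and 3.80 in P3. Beside them, 62.7% of all tested genes were called higher in each comparison. Mcm3, a subunit of the helicase ring (chr1:20802968-20820312 in mm10), was at 0.162, 0.281 and 1.44 RPKM as the lowest, median and highest of 7 adult libraries. It was at 28.8, 6.84, 11.5 and 10.6 RPKM in P1 replicates 1 to 4 and at 17.7, 29.6, 26.3 and 28.6 in P3 replicates 1 to 4. Every neonatal library lay above every adult one, adult replicate 4 was the highest adult and P1 replicate 1 the highest P1 library. The log2 change was 3.78 ± 0.33 (SE, limma adjusted p = 7.1e-09) in P1 and 4.76 ± 0.33 (adjusted p = 2.7e-10) in P3, and centred it was 2.33 and 3.21. With P3 replicate 1 alone it was 4.27 ± 0.59 (limma adjusted p = 2e-05), and without P1 replicate 1 the P1 change was 3.39.

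Mcm6, also a ring subunit (chr1:128331590-128359664), had adult values of 0.142, 0.282 and 1.76 RPKM (lowest, median, highest). Its P1 values were 22.6, 7.17, 9.67 and 9.06 and its P3 values 16.5, 22.8, 20.4 and 22.3. No neonatal library overlapped the adult range, and the log2 changes were 3.63 ± 0.33 and 4.50 ± 0.33 (limma adjusted p = 1.2e-08 and 5.1e-10). Mcm4, Mcm7 and Mcm2 complete the ring members tested. Mcm2 rose from 0.708 ± 0.270 (SD, n = 7) in adult to 8.89 ± 4.97 (n = 4) in P1 and 12.4 ± 2.54 RPKM (n = 4) in P3. Its log2 change of 2.86 in P1 (limma adjusted p = 8.6e-09) was the smallest of the 5 Mcm helicase genes tested, and its centred change was 1.40. Mean RPKM of Mcm4 went from 0.625 to 11.4 and 15.3, and that of Mcm7 from 1.16 to 13.1 and 18.5, in adult, P1 and P3. Mcm3ap, which matches by symbol but encodes a nuclear export factor that also acetylates Mcm3, changed by 1.77 and 1.98 (limma adjusted p = 2.5e-06 and 4.9e-07) and centred was not called.

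The adult level of these genes rested on few reads. Reads recovered from the RPKM steps were as few as 7 in an adult library for Mcm3 and for Mcm6, against at least 208 and 335 in P1. Among the 74 members with recovered reads, 15 had under 10 reads in some adult library and 1 in some neonatal library. The summed RPKM of the proliferation markers in the table (7 of 29 listed) was 11.9 to 32.6 in adult, highest in adult replicate 4, 62.9 to 76.3 in P1 and 62.1 to 81.9 in P3 libraries.

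**Figure D2:**
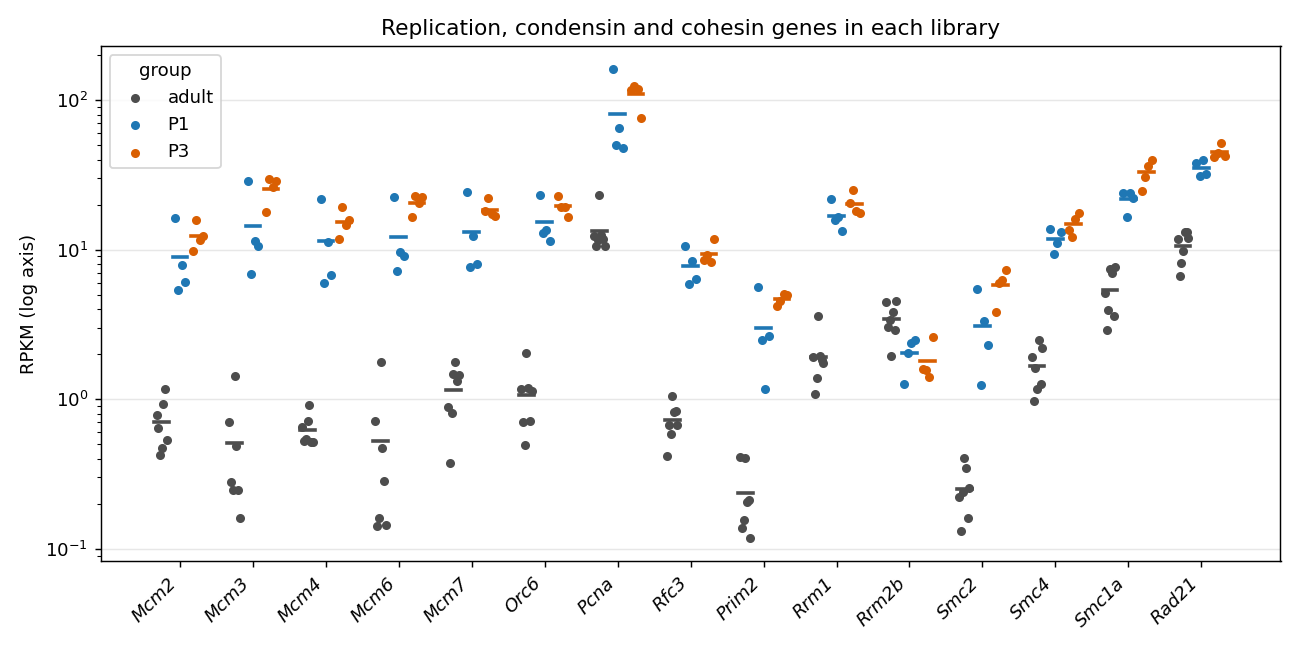
RPKM (log axis) of 15 replication, condensin and cohesin genes in each library, with 1 point per library and a bar at the group mean, for adult (n = 7), P1 (n = 4) and P3 (n = 4). Every gene shown except Rrm2b is lowest in adult libraries, and P1 replicate 1 is the highest P1 point for Mcm2, Mcm3, Mcm4, Mcm6, Mcm7 and Pcna.

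Orc6 had the largest change within the origin recognition complex. Orc6, the least conserved subunit (chr8:85299632-85308278), was at 0.494, 1.13 and 2.02 RPKM in adult libraries (lowest, median, highest), at 23.0, 12.96, 13.5 and 11.3 in P1 and at 23.0, 19.3, 19.4 and 16.5 in P3. The neonatal libraries all lay above the adult ones. The log2 changes were 3.34 ± 0.24 and 3.73 ± 0.24 (limma adjusted p = 8.9e-10 and 1.2e-10), and with P3 replicate 1 alone 3.97. Orc2 and Orc4, core subunits that contact DNA, rose by 1.78 and 1.44 in P1 and by 2.10 and 1.61 in P3 as deposited (1.955 and 1.73 with P3 replicate 1 alone), and centred neither was called. Orc3 had mean RPKM of 3.12, 5.79 and 5.65 in adult, P1 and P3 libraries, below the call in both (log2 changes 0.79 and 0.75), and its sign turned to -0.67 and -0.81 when centred. The log2 ratio of Orc2 to Orc4 within a library, which scaling a whole library moves only through the pseudocount, averaged -0.31 in adult libraries, 0.03 in those of P1 and 0.18 in those of P3. The differences of 0.34 and 0.49 had adjusted p of 0.028 and 0.02 in exact permutation tests over 60 such tests. Orc2 shares 29.8% of its exonic bases with Nif3l1 on the other strand, and whether counting used strand is not given in the sources used here. Its share of reads is therefore uncertain, as it is for 10 of the 84 members that share over 10 percent of exonic bases with another gene.

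All 5 clamp and clamp loader genes tested were called higher as deposited, beside 62.7% of all tested genes in P1 and in P3. Pcna and Rfc3 had the largest changes. Pcna was at 10.52, 11.8 and 23.1 RPKM in adult libraries (lowest, median, highest), at 160.3, 49.8, 65.4 and 47.9 in P1 and at 116, 124, 119 and 76.2 in P3. Groups against adult did not overlap, and P1 replicate 1 was far above the other P1 libraries. Its log2 changes were 2.42 ± 0.29 and 3.02 ± 0.29 (limma adjusted p = 4.4e-07 and 1.9e-08), and centred it was 0.97 in P1, short of a call, and 1.47 in P3. Rfc3, a small subunit of the loader, rose from 0.721 ± 0.201 RPKM (SD, n = 7) to 7.82 ± 2.19 in P1 and 9.41 ± 1.60 in P3 (n = 4 each), by 2.75 and 3.02 (limma adjusted p = 6.5e-10 and 1e-10), and by 2.895 with P3 replicate 1 alone. Rfc1, the large subunit, went from 3.29 ± 0.830 to 7.13 ± 0.909 and 8.13 ± 1.76 RPKM, log2 changes of 1.03 and 1.20 that turned to -0.43 and -0.36 when centred. Rfc2 and Rfc4 were called higher as deposited only, and both share over 10% of exonic bases with a gene on the other strand.

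All 9 polymerase and primase genes in the table were called higher in P1 and in P3 as deposited, with medians of 1.73 and 1.90. The share of all tested genes called higher was 62.7% in each. Prim2, the large primase subunit, was at 0.118, 0.206 and 0.412 RPKM in adult (lowest, median, highest), at 5.63, 2.496, 1.17 and 2.65 in P1 and at 4.21, 4.54, 5.04 and 4.94 in P3. The groups did not overlap with adult, and its changes of 2.11 and 2.83 (limma adjusted p = 2.6e-07 and 4.2e-09) were the largest of the role. It changed by 2.70 with P3 replicate 1 alone, where 9 of the 9 were called. Centred, only Prim2 of the 9 was called, in P3 (1.28), and with P3 replicate 1 alone none was. Pold3, an accessory subunit of polymerase delta, and Pola2, the regulatory subunit of polymerase alpha, followed in P3 with changes of 2.49 and 2.35 (2.145 and 2.32 with P3 replicate 1 alone), and 5 of 6 scalings called each higher. Pold4, the smallest delta subunit, changed least in P1 (1.43, and -0.03 centred), and it shares 24.6% of its exonic bases with another gene on the same strand. The epsilon subunits Pole3 and Pole4 are histone-fold partners. Their log2 ratio averaged -0.15 in adult, -0.37 in P1 and -0.21 in P3, and its differences from adult had adjusted p of 0.48 and 0.78 (exact permutation). The ratio of Pold1, the catalytic delta subunit, to Pold2 was 0.80 higher in P3 than in adult (adjusted p = 0.036, exact permutation test), a mean difference in which P3 replicate 1, at -1.87, lay inside the adult range of -2.3 to -1.65.

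Replication protein A coats single-stranded DNA. Rpa1, the largest subunit, went from 7.22 ± 1.97 RPKM in adult (SD, n = 7) to 16.9 ± 3.13 in P1 and 16.4 ± 2.18 in P3 (n = 4 each), called higher as deposited at 1.20 and 1.16 and at -0.26 and -0.39 centred. Rpa3, the smallest, had log2 changes of 0.62 and 0.47, with libraries that overlapped the adult range, and it was called lower in P3 when centred (-1.08, limma adjusted p = 0.0017), but not with P3 replicate 1 alone (-0.88).

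Of the ribonucleotide reductase genes Rrm1 rose, and Rrm2b did not pass the fold as deposited. Rrm1 encodes the large subunit, and Rrm2b the p53-inducible small subunit that serves DNA repair and mitochondrial DNA in cells outside S phase. Rrm1 (chr7:102441695-102469771) was at 1.08, 1.82 and 3.59 RPKM in adult (lowest, median, highest), at 21.8, 15.7, 16.5 and 13.3 in P1 and at 20.5, 25.1, 18.0 and 17.6 in P3. Rrm2b (chr15:37923952-37961318) was at 1.94, 3.37 and 4.55 in adult, at 1.26, 2.04, 2.39 and 2.5 in P1 and at 1.60, 1.57, 1.40 and 2.59 in P3. All neonatal libraries lay above all adult ones for Rrm1, whereas for Rrm2b the low end of the adult range, adult replicate 4, overlapped the neonatal values.

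Rrm1 rose by 2.87 ± 0.22 in P1 and 3.14 ± 0.22 in P3 (limma adjusted p = 1.9e-09 and 3.4e-10). Rrm2b had log2 changes of -0.62 ± 0.22 and -0.78 ± 0.22 (limma adjusted p = 0.013 and 0.003), short of the fold needed for a call. Centred, Rrm2b was called lower by -2.08 and -2.33, and 5 of 6 scalings called it lower in each comparison. Its centred change with P3 replicate 1 alone was -2.48. The log2 ratio of Rrm1 to Rrm2b averaged -0.72 ± 0.68 (SD, n = 7) in adult, 2.77 ± 0.62 (n = 4) in P1 and 3.20 ± 0.46 (n = 4) in P3. It ran from -1.17 to 0.74 in adult and from 2.20 to 3.66 in the 8 neonatal libraries, and was 3.33 in P3 replicate 1. Both differences had p = 0.003, the smallest 4 against 7 libraries can give (exact permutation, two-sided, adjusted p = 0.02).

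**Figure D3:**
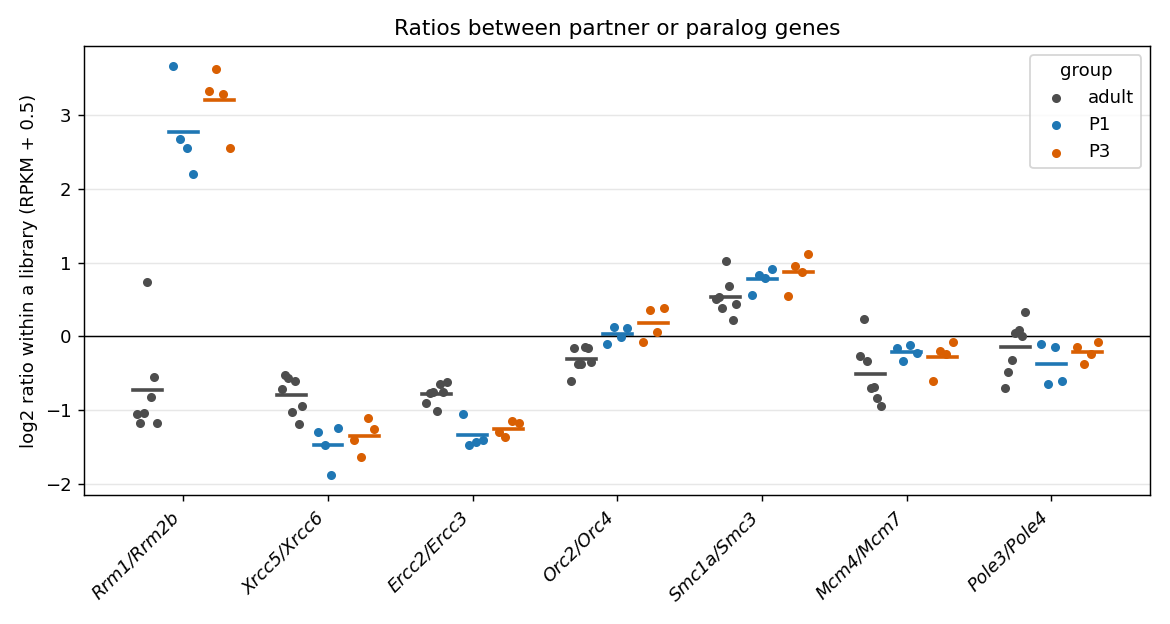
Log2 ratio of RPKM + 0.5 between 2 genes within a library (y axis) for 7 gene pairs, with 1 point per library and a bar at the group mean, for adult (n = 7), P1 (n = 4) and P3 (n = 4). Rrm1/Rrm2b is 2.20 or more in every neonatal library and at most 0.74 in adult ones, while Mcm4/Mcm7 and Pole3/Pole4 overlap between groups.

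The Smc genes were called higher in 6 of 6 cases in both comparisons as deposited, with medians of 1.85 in P1 and 2.39 in P3. Among all tested genes 62.7% were called higher in each. The condensin arms led. Smc4 was at 0.972, 1.63 and 2.48 RPKM in adult (lowest, median, highest), at 13.7, 9.32, 11.1 and 13.1 in P1 and at 13.6, 12.1, 16.1 and 17.4 in P3. Both neonatal groups lay above adult, and it rose by 2.53 ± 0.21 and 2.85 ± 0.21 (limma adjusted p = 3.5e-09 and 4.7e-10). Its partner Smc2 had mean RPKM of 0.251, 3.09 and 5.83 and changes of 2.12 and 3.05. The ratio of Smc2 to Smc4 did not pass in any comparison (adjusted p 0.3, 0.5 and 0.3, exact permutation tests). Its differences were -0.41 and 0.20 from adult and 0.61 between P3 and P1. With 4 against 4 libraries and adjustment over 60 tests, the ratio could hardly have passed between P3 and P1.

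The cohesin arms Smc1a and Smc3 rose by 1.97 and 1.74 in P1 and by 2.55 and 2.22 in P3, and Rad21, the kleisin that closes the cohesin ring, by 1.70 and 2.06 (limma adjusted p = 1.9e-07 and 1.2e-08). The changes with P3 replicate 1 alone were 2.16, 2.147 and 1.96, and all 3 were called. Rad21 was among the most abundant members, at 10.7 ± 2.52 RPKM in adult (SD, n = 7), 35.1 ± 4.19 in P1 and 44.98 ± 4.39 in P3 (n = 4 each). Centred, Smc1a was called in P3 (1.00) and Smc3 and Rad21 in neither comparison. Smc2 against Smc3, condensin against cohesin, had a log2 ratio 0.83 higher in P3 than in adult (adjusted p = 0.028, exact permutation test), and 0.39 higher in P1 (adjusted p = 0.29). In P3 replicate 1 it was -1.98, inside the adult range of -3.0 to -1.9. Smc6, of the Smc5-Smc6 complex that guards stalled forks, changed least, by 1.43 in both comparisons, and centred it was at -0.03 and -0.12.

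Of the Rad genes of break repair and checkpoints, 5 of 6 tested were called higher in P1 and in P3 as deposited. The share of all tested genes was 62.7% in each. With P3 replicate 1 alone the median change of these Rad genes was 1.75. Rad9a, part of the checkpoint clamp, went from 0.970 ± 0.347 RPKM (SD, n = 7) to 6.37 ± 2.13 in P1 and 8.65 ± 0.857 in P3 (n = 4 each), by 2.20 and 2.67 (limma adjusted p = 3.1e-08 and 1.7e-09), and by 2.625 with P3 replicate 1 alone. Rad54l2, a helicase-like gene, changed by 2.004 and 2.70, Rad52, an annealing factor, by 1.93 and 1.64, and Rad50, a Smc-like arm of the Mre11 complex, by 1.53 and 1.81. Rad51d, which acts in homologous recombination, had changes of 0.68 and 0.41, was not called, and centred was called lower in P3 (-1.14), where with P3 replicate 1 alone it was -0.998 and not called.

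The Xrcc genes had the smallest median change of any role with over 2 members, at 0.61 in P1 and 0.24 in P3, and with P3 replicate 1 alone 0 of 5 were called as deposited, with a median of 0.73. Xrcc5 and Xrcc6 encode the Ku80 and Ku70 partners of end joining. Xrcc5 was at 3.31, 3.72 and 4.61 RPKM in adult (lowest, median, highest), at 3.46, 3.97, 3.10 and 3.82 in P1 and at 4.17, 2.36, 2.57 and 2.98 in P3. These ranges overlapped, and the log2 changes were -0.07 and -0.31 (limma adjusted p = 0.69 and 0.086), -1.53 and -1.86 centred. The change with P3 replicate 1 alone was 0.13, and -1.48 centred, still called lower. Xrcc6 had changes of 0.61 and 0.24, and centred of -0.85 and -1.31, called lower in P3. The ratio of Xrcc5 to Xrcc6 differed from adult by -0.68 in P1 and by -0.55 in P3 (adjusted p = 0.028 and 0.036, exact permutation). Xrcc2, also of homologous recombination, was at 1.29 ± 0.375 RPKM in adult (SD, n = 7), 1.08 ± 0.212 in P1 and 1.02 ± 0.315 in P3 (n = 4 each), log2 changes of -0.16 and -0.23 that were not called, and -1.62 and -1.78 centred, called lower, as with P3 replicate 1 alone (-0.41, and -2.02 centred). Xrcc1, the scaffold of single-strand break repair, was called higher as deposited (1.26 and 1.21) and turned to -0.20 and -0.34 when centred. Lig3, its ligase partner, which shares 25.1% of its exonic bases with Rffl, changed by 1.48 and 1.64 and Lig4, the end-joining ligase, by 1.22 and 1.38, both called as deposited and neither when centred, where Lig4 was at -0.24 and -0.18.

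**Figure D4:**
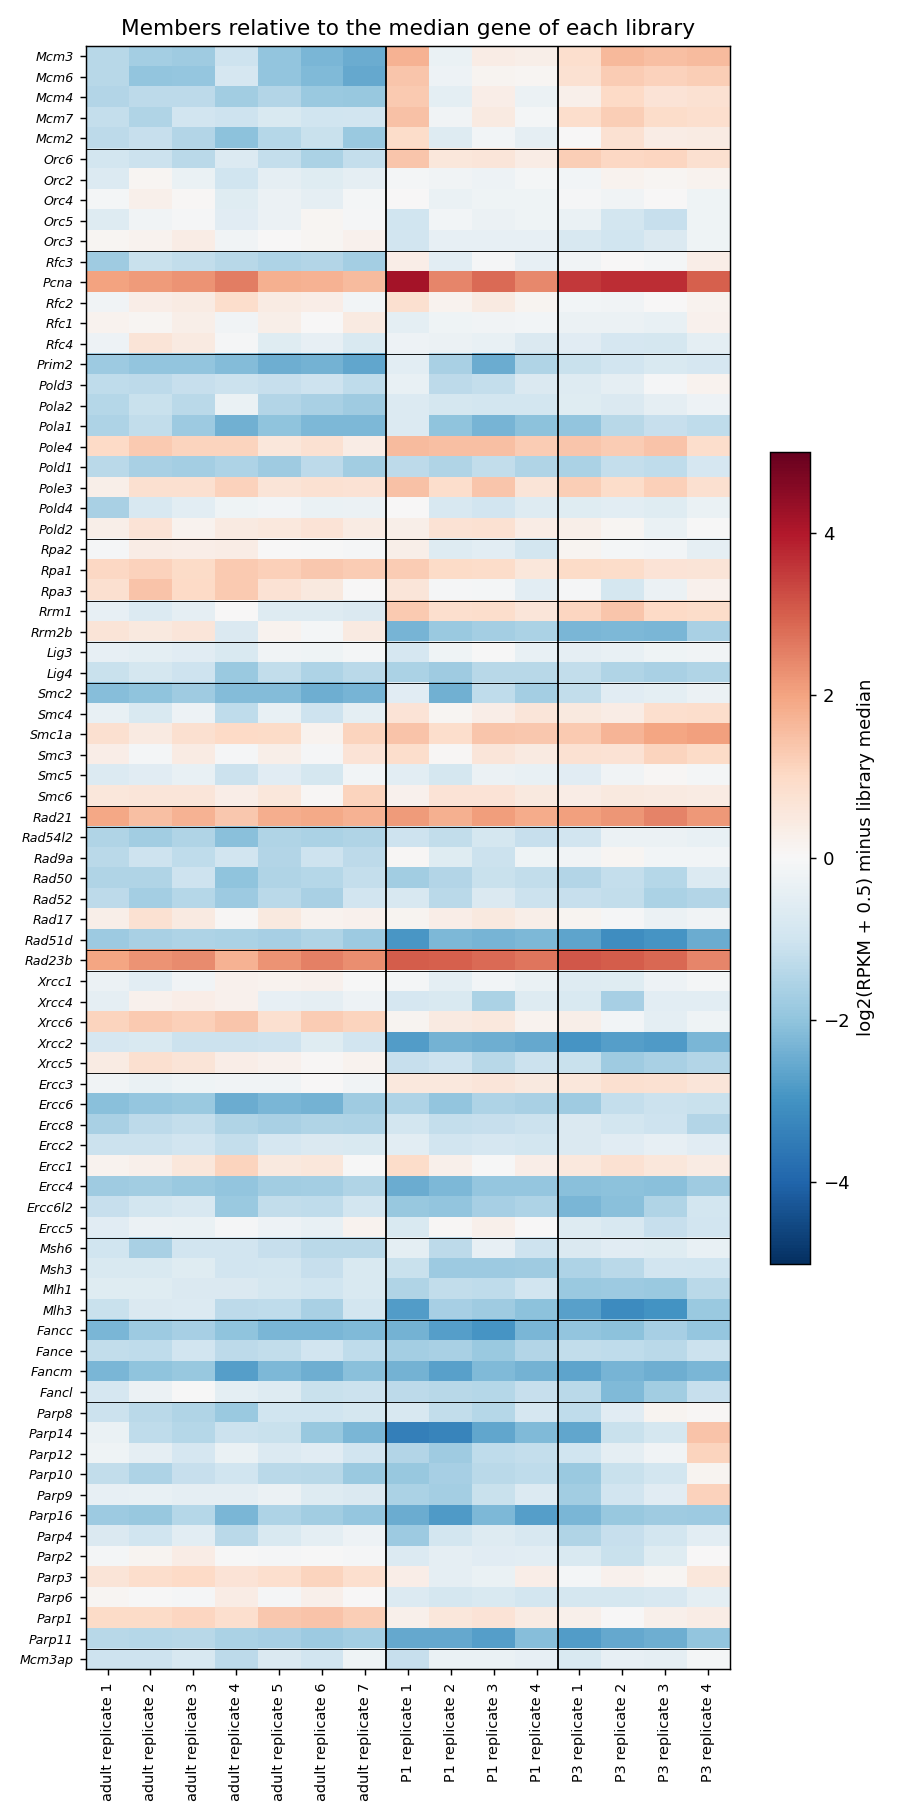
Log2(RPKM + 0.5) minus the library median (colour scale) for 79 of the 81 tested members (rows, grouped by role) in the 15 libraries (columns, black lines between groups). Red is above and blue below the library's median gene: the Mcm rows turn from blue in adult to pale or red in neonatal libraries, and Rrm2b and Xrcc5 turn from near white or red to blue.

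Nucleotide excision repair genes were called higher in 7 of 8 cases in each comparison as deposited, with medians of 1.59 and 1.81. Of all tested genes 62.7% were called higher in each. Centred, 0 of the 8 were called in either comparison, with medians of 0.14 and 0.25. Ercc3, a helicase of the TFIIH complex, led, from 2.51 ± 0.671 RPKM in adult (SD, n = 7) to 12.6 ± 0.634 in P1 and 15.05 ± 0.928 in P3 (n = 4 each), by 2.16 and 2.40 (limma adjusted p = 5.5e-09 and 8.4e-10). Centred, Ercc3 was at 0.70 and 0.85. Ercc2, the other TFIIH helicase, rose by 1.60 and 1.94, and the ratio of Ercc2 to Ercc3 differed from adult by -0.56 in P1 and by -0.47 in P3 (adjusted p = 0.02, exact permutation, for both). Ercc2 shares 42.4% of its exonic bases with genes on the other strand, so its share of reads is uncertain. Ercc6l2 changed least in P1, by 0.86, and centred in P3 was at -0.55. Rad23b, which helps Xpc recognise damage and carries ubiquitinated proteins to the proteasome, was at 11.5, 13.04 and 20.6 RPKM in adult (lowest, median, highest), at 72.2, 72.6, 66.5 and 56.4 in P1 and at 86.8, 77.5, 68.9 and 51.4 in P3. All P1 and P3 libraries lay above adult, and it rose by 2.14 and 2.20 (limma adjusted p = 2.3e-08 and 1e-08). Centred, Rad23b was at 0.68 and 0.65 and was not called.

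Mismatch repair genes were called higher in 1 of 5 cases in P1 and in 2 of 5 in P3, or in 1 of 5 with P3 replicate 1 alone. Of all tested genes 62.7% were called higher in P1 and in P3. Centred, 0 of the 5 were called higher in either comparison and 1 was called lower, in P3, with medians of -0.78 and -0.63. Msh6, a mismatch-reading subunit, went from 0.987 ± 0.383 RPKM in adult (SD, n = 7) to 4.88 ± 1.62 in P1 and 6.04 ± 0.594 in P3 (n = 4 each), by 1.85 and 2.18 (limma adjusted p = 5.7e-07 and 5.4e-08). Centred, Msh6 was at 0.39 and 0.63. Mlh3, a MutL partner also used in meiosis, had changes of 0.47 and -0.02 as deposited. Centred, Mlh3 was at -0.99 and -1.58 and was called lower in P3. Among Fanconi anemia genes, Fancm, a fork-remodelling translocase, was called in both (1.29 and 1.37) and turned to -0.17 and -0.18 when centred. Fancc and Fance, of the core complex, were called in P3 at 1.72 and 1.504 (1.70 and 1.545 with P3 replicate 1 alone), and Fancl, the ubiquitin ligase of the pathway, had changes of 0.79 and 0.59. Centred, 0 of the 4 Fanconi anemia genes were called in either comparison, with medians of -0.50 and -0.11. Fancc and Fancl share 18.6% and 13.7% of their exonic bases with genes on the other strand.

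Parp genes add ADP-ribose to proteins. Between P3 and P1, 2 of 81 tested members (2.47%) were called higher, Parp12 and Parp14, and 0 lower, beside 1.4% and 5.31% of all tested genes, with a median change of 0.24 beside 0.09. Both were called under 6 of 6 scalings, where 0.852% of all tested genes were higher and 4.15% lower, and centring gave the same count (1.19% and 7.53%). At an unadjusted p under 0.05 there were 16 members, and 6 passed the adjusted p without regard to fold. The other 4 were Fancc (0.76), Parp16 (0.74), Rad54l2 (0.70) and Smc2 (0.93). No share of all tested genes is given at these thresholds, so the counts only describe the members. Parp12 and Parp14 are interferon-induced mono-ADP-ribosyltransferases. Parp14 (chr16:35832874-35871544) was at 0.265, 0.535 and 2.01 RPKM in adult (lowest, median, highest), at 0.328, 0.432, 1.02 and 1.46 in P1 and at 1.18, 3.99, 4.54 and 25.4 in P3. P3 replicate 4 stood far above the other P3 libraries, and P3 replicate 1 lay inside the adult and P1 ranges.

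The log2 change of Parp14 was -0.08 ± 0.51 in P1 and 2.11 ± 0.51 in P3 against adult (limma adjusted p = 0.89 and 0.00086) and 2.18 ± 0.58 in P3 against P1 (adjusted p = 0.028). With P3 replicate 1 alone, the change against adult was 0.37 (limma adjusted p = 0.55). Parp12 (chr6:39086410-39118349) was at 0.917, 1.89 and 2.71 RPKM in adult, at 2.77, 2.17, 3.34 and 3.47 in P1 and at 4.60, 6.64, 7.69 and 20.3 in P3. P3 libraries all lay above P1 and adult ones, and the change was 1.999 ± 0.30 against adult (limma adjusted p = 5.1e-06) and 1.39 ± 0.34 against P1 (adjusted p = 0.021). Parp12 was still called against adult with P3 replicate 1 alone (1.20, limma adjusted p = 0.011). In P3 against P1 neither call held without P3 replicate 4, where the changes were 1.45 for Parp14 (limma adjusted p = 0.084) and 0.98 for Parp12 (0.069), nor without P1 replicate 2, P1 replicate 3 or P3 replicate 3. The Parp14 call was also lost without P3 replicate 2 (adjusted p = 0.064 in limma). Fitted on P1 and P3 libraries only, 0 members were called in P3 against P1, beside 1.13% of all tested genes higher and 0.916% lower. At an unadjusted p under 0.05 there were 22 members, again with no share of all tested genes given.

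Other interferon-induced genes, chosen after these values were seen, were high in the same library: in P3 replicate 4 Irf7 was at 26.9 and Ifit3 at 31.8 RPKM, against at most 5.41 and 5.87 in any other library. Their part in the Parp values was not tested. Parp9 and Parp10, of the same family, were also highest in P3 replicate 4, at 21.3 and 10.1 RPKM, beside 2.55 to 5.89 and 2.27 to 4.43 in the other P3 libraries. Parp8 rose by 1.62 in P1 and 2.38 in P3 (limma adjusted p = 2.6e-05 and 2e-07), and by 1.575 with P3 replicate 1 alone (adjusted p = 0.0038). Parp1, the main DNA damage sensor of the family, went from 6.91 ± 2.05 RPKM (SD, n = 7) to 12.2 ± 1.88 in P1 and 10.9 ± 1.15 in P3 (n = 4 each), log2 changes of 0.82 and 0.66 that were not called. Its ratio to Parp2, a related sensor, differed from adult by -0.06 and -0.24 (adjusted p = 0.78 and 0.43, exact permutation). Of the 12 Parp genes, 3 were called higher in P1 and 7 in P3, beside 62.7% of all tested genes in each. With P3 replicate 1 alone their median change was 0.77. Centred, Parp14 alone of the 12 was called against adult, lower in P1 (-1.54), where 21.8% of all tested genes were called lower.

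**Figure D5:**
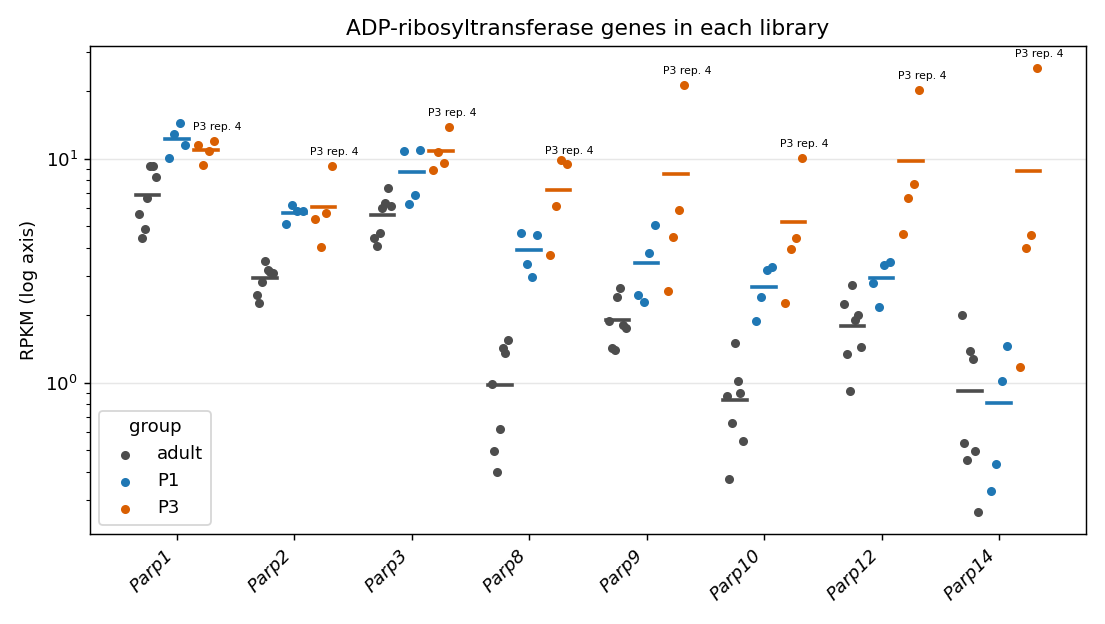
RPKM (log axis) of 8 Parp genes in each library, with 1 point per library and a bar at the group mean, for adult (n = 7), P1 (n = 4) and P3 (n = 4), and P3 replicate 4 labelled. P3 replicate 4 is the highest point for Parp9, Parp10, Parp12 and Parp14 (25.4), while Parp1 differs little between P1 and P3.

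Between P3 and P1 the replication members differed by less than the test could call. Mcm3 was 0.98 ± 0.37 higher in P3 (limma adjusted p = 0.096), Mcm6 0.86 ± 0.37 (0.14), Pcna 0.59 ± 0.33 (0.26) and Orc6 0.40 ± 0.27 (0.35). Every P3 library lay above every P1 library for 10 of 81 tested members, and below for 0, beside 10.7% and 2.53% of all tested genes, and centred for 3 and 1 (4.81% and 5.53%). P1 replicate 1 was the highest P1 library for the 5 Mcm helicase genes. It also had the highest fibroblast (1410) and the lowest cardiomyocyte (7820) marker sum among P1 libraries, whose part was not tested. Without P1 replicate 1, 6 members were called higher in P3 (beside 3.15% of all tested genes higher and 8.53% lower): Mcm3 (1.37), Mcm6 (1.20), Prim2 (1.04) and Smc2 (1.22), with Parp12 and Parp14. With P3 replicate 1 alone, the median change in P3 against P1 was 0.17 for the members and 0.15 for all tested genes. A group of 1 library cannot decide which members differ. Of the 20 within-library pair ratios, 0 passed in P3 against P1, where the smallest exact permutation p for 4 against 4 is 0.029. Adjusted over 60 tests, nearly all of these ratios would have to reach that p before any passed, so the 0 decides nothing.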

How the data were processed

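Ventricular cardiomyocyte mRNA was measured in 15 libraries (7 adult, 4 P1, 4 P3). The authors deposited RPKM in 1 table, with 1 column per library, all used. HISAT2, Partek 6.6 and mm10 are named in the submitters' processing notes. Neither annotation nor counting strand was given in the sources used here. Reads per gene were recovered from whole-number steps of RPKM for 8153 genes (84.3%, relative tolerance 3e-05, 0.0% after a random change of 1 percent). Relative depth, taken from the RPKM scale, spanned 1.0 (adult replicate 4) to 2.74. Reads in the recovered genes ran from 958442 to 2603339 in adult and from 3494602 to 5004445 in neonatal libraries. Low genes are least precise.

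The 9389 genes that reached 1 RPKM in 4 or more libraries entered limma 3.58.1 (R 4.3.3) as log2(RPKM + 0.5), with 3 group coefficients, eBayes with trend and two-sided tests, checked on simulated data. Pair ratios were tested by exact permutation, adjusted over 60 tests. Alternatives changed the pseudocount, filter, scaling, trend, libraries and replicate block. Medians over members describe them and are not tests. Positions come from GENCODE for mm10 (84 of 84 members matched) and promoters from RefSeq GRCm38.p6. Members in full detail are, per role, those with the largest and smallest P1 change, those called in P3 against P1, and the pairs. Some members and pairs enter the counts and fits but are not reported here by name. Members, lists and pairs were chosen with earlier results of these data known. Figures used matplotlib 3.10.9 in Python 3.11.15.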

Additional observations from a re-analysis of the deposited data

Results flagged for a closer look

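In groups of 4 to 7 libraries, 7 of 96 groups of named members held a library whose gap to its nearest neighbour was large for the range of its group, where chance gives about 1 in 20. Parp14 was at 25.4 RPKM in P3 replicate 4, beside 1.18 to 4.54 in the other P3 libraries, and Rrm2b was at 2.59 in the same library, beside 1.4 to 1.6. Mcm3 was at 1.44 RPKM and Rrm1 at 3.59 in adult replicate 4, beside 0.162 to 0.705 and 1.08 to 1.95 in the other adult libraries. That library had the lowest relative depth of the 15 (1.0), though adult replicate 3 had fewer reads in recovered genes (958442 beside 1009419). Adult replicate 4 had the highest adult sums of endothelial (225), fibroblast (81.2), mural (459), proliferation (32.6) and cardiomyocyte (39100) markers. Its RPKM total was also the highest of the adult libraries (280112, beside 145050 to 195003). Without it, Mcm3 changed by 3.96 in P1 and 4.93 in P3, and Rrm1 by 3.01 and 3.28. In P1 replicate 1, Orc3 was at 4.05 RPKM beside 6.26 to 6.46, and Rad51d at 0.679 beside 1.36 to 1.45. Fancl was at 3.58 in P1 replicate 4, beside 3.0 to 3.07.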

How the results depend on the processing

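The choice of scaling moved the results most. In P1 against adult, members called higher and lower numbered 9 and 4 with library-median centring, 13 and 3 when quantile-normalized, 12 and 3 by median-of-ratios factors, 34 and 1 with an equal RPKM sum, and 24 and 1 without the 100 highest genes in that sum. In P3 the counts were 15 and 8, 21 and 5, 19 and 7, 47 and 1, and 36 and 2. In the same order, 13.5%, 17.8%, 16.5%, 41.4% and 31.2% of all tested genes were called higher in P1, and 21.8%, 17.9%, 19.7%, 9.19% and 12.3% lower. In P3 these shares were 18.9%, 25.3%, 22.7%, 50% and 38.8% higher, and 27.2%, 23.1%, 24.9%, 13.2% and 17.2% lower. The median change of the members, in the same order, was -0.03, 0.11, 0.14, 0.86 and 0.59 in P1 and 0.09, 0.40, 0.29, 1.16 and 0.81 in P3. For all tested genes the median was -0.09, 0.09, 0.06, 0.78 and 0.52 in P1 and -0.07, 0.17, 0.09, 1.00 and 0.64 in P3. The median of the members was 1.63 and 1.92 with a pseudocount of 0.1, 1.38 in P3 with a pseudocount of 1, and 1.26 and 1.42 with adult replicates 5 to 7 alone.

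Leaving out 1 library gave 52 to 57 members called higher in P1 (medians 1.38 to 1.5), 58 to 64 in P3 (1.56 to 1.70) and 0 to 6 in P3 against P1 (0.19 to 0.29), with 0 lower. The shares of all tested genes called higher were 60.9% to 64.2%, 61.6% to 63.8% and 0.16% to 3.2%. Without P1 replicate 2, P1 replicate 3, P3 replicate 3 or P3 replicate 4 the member count in P3 against P1 was 0, without P3 replicate 2 it was 1, without P3 replicate 1 it was 5 and without P1 replicate 1 it was 6. Fitted on the 2 groups alone it was 0, beside 1.13% of all tested genes higher and 0.916% lower. Adult replicates 1 to 4 gave 58 and 64 higher (66.5% and 65.3% of all tested genes), and replicates 5 to 7 gave 47 and 54 (57.1% and 58.7%). The centred member counts given next stand beside these shares of all tested genes called higher and lower. With adult replicates 1 to 4 the shares were 12.9% and 22.4% in P1, and 18.8% and 28.1% in P3. With adult replicates 5 to 7 they were 15.1% and 21.1% in P1, and 19.6% and 27.2% in P3. Chosen after seeing the data, centring with adult replicates 1 to 4 gave 9 higher and 8 lower in P1 and 15 and 10 in P3, with adult replicates 5 to 7 gave 10 and 3, and 16 and 8, and with P3 replicate 1 as the only P3 library gave 11 and 8 in P3 and 0 in P3 against P1.

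Named members whose called change turned below 0 are given for centring, then quantile, then median-of-ratios scaling where each turned it. In P1 they were Fancm -0.17, Lig4 -0.24 and -0.035 (quantile), Pold4 -0.032, Rfc1 -0.43, -0.43 and -0.37, Rpa1 -0.26, -0.17 and -0.28, Smc6 -0.028 and -0.013 (median-of-ratios), and Xrcc1 -0.20, -0.20 and -0.11. In P3 they were Ercc6l2 -0.55, -0.21 and -0.22, Fancm -0.18, Lig4 -0.18, Rfc1 -0.36, -0.34 and -0.28, Rpa1 -0.39, -0.29 and -0.39, Smc6 -0.12, -0.087 and -0.093, and Xrcc1 -0.34, -0.32 and -0.23. Members named here that centring called lower and that were above 0 as deposited were Rad51d -1.14 and Rpa3 -1.08 and -1.04 (median-of-ratios), in P3. Xrcc6 was another, centred at -1.31 in P3 and called lower under 3 of 6 scalings. Except for what scaling itself does, the cause was not tested.

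Replicate numbers did not pair the samples. Deviations of same-numbered libraries correlated at -0.02 to 0.28 for P1 and adult, -0.42 to 0.01 for P3 and adult and -0.51 to 0.37 for P3 and P1. A fit with a replicate block called 58, 64 and 2 members higher and 0 lower. Depth limits the low genes, since 15 members had under 10 reads in an adult library.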

Other observations

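Genes of the same pathways that the symbols above do not match are given beside all tested genes, of which 62.7% were called higher in P1 and in P3, and 4.32% and 9.16% lower. Centred, the shares were 13.5% and 18.9% higher, and 21.8% and 27.2% lower. Of 24 other replication genes in the table, 19 were called higher in P1 and 20 in P3 with 1 lower in each, and centred 1 and 2 were called higher and 2 and 3 lower. Slbp, which binds histone mRNA, rose from 2.25 ± 0.871 RPKM in adult (SD, n = 7) to 17.1 ± 12.5 in P1 and 22.3 ± 4.48 in P3 (n = 4 each), by 2.52 and 3.09 (limma adjusted p = 5.4e-07 and 2.9e-08). Top1, a topoisomerase that relaxes DNA ahead of forks, rose by 2.40 and 2.83. Gmnn, an inhibitor of origin licensing chosen after its values were seen, was the 1 called lower, from 20.5 RPKM in adult to 6.74 and 5.19. Of 18 other cohesin and condensin genes, 14 were called higher in P1 and 16 in P3 with 0 lower, led by the cohesin subunits Stag1 (2.40 and 2.96) and Stag2 (2.30 and 2.61), and centred 0 and 2 were called higher and 1 and 2 lower. Of 38 tested genes of break repair, 27 and 30 were called higher and 0 lower, among them Rbbp8, a factor that starts end resection (2.52 and 3.29), and Topbp1, a checkpoint activator (2.34 and 2.98). Centred, 3 and 3 were called higher and 3 and 4 lower. Of 34 tested excision repair genes 20 and 20 were called higher and 0 lower, led by Cul4b, a ubiquitin ligase scaffold (2.84 and 3.08), and Gtf2h1, a TFIIH subunit, changed by 2.54 and 2.77. Centred, 3 and 5 were called higher and 5 and 7 lower. With P3 replicate 1 as the only P3 library, the counts called higher in P3 were 20 of 24 replication, 15 of 18 cohesin and condensin, 26 of 38 break repair and 21 of 34 excision repair genes, beside 64.1% of all tested genes, and Gmnn alone was lower.

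Genes that copy and express mitochondrial DNA had calls in both directions. Of 17 in the table, 5 were called higher and 1 lower in P1 and 4 and 2 in P3, with medians of 0.64 and 0.43, and centred 7 and 10 were called lower and 0 higher. Those counts with P3 replicate 1 alone were 6 higher and 1 lower as deposited, and 0 and 7 centred. Mterf2, a mitochondrial transcription termination factor, fell from 9.78 ± 1.93 RPKM in adult (SD, n = 7) to 2.84 ± 0.424 in P1 and 2.35 ± 0.804 in P3 (n = 4 each), log2 changes of -1.61 and -1.86 (limma adjusted p = 5.3e-07 and 6.1e-08). Tfb1m, which methylates mitochondrial ribosomal RNA, was at 3.07, 1.75 and 0.661 RPKM and was called lower in P3 (-1.73), but not with P3 replicate 1 alone (-0.70, limma adjusted p = 0.099). Of 29 proliferation markers listed 7 were in the table, and all 7 were called higher in both comparisons as deposited and 0 when centred, with E2f3, an S-phase transcription factor, at 2.16 and 2.48 and Kif20a, a cytokinesis motor, at 1.27 and 2.04. These lists overlap in function with the members and share all libraries with them.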
